A study of Homo sapiens with 9 samples.

Results

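The genes described here are the enzymes and carriers with which a cell makes lactate and moves it across the plasma membrane. They were chosen by name as 7 members, the lactate dehydrogenase genes LDHA and LDHB, the monocarboxylate transporter genes SLC16A1, SLC16A3 and SLC16A7, and the chaperone genes BSG and EMB, out of 60671 genes in each deposited table. All 7 passed the filter on low counts, as did 19812 genes in all. The study sequenced the RNA of C28/I2, a line of immortalised chondrocytes of human origin, to ask what happens to the cells' metabolism when carbonic anhydrase 2 (CA2), the cytosolic enzyme that interconverts carbon dioxide and bicarbonate, is knocked down. The labels give 3 libraries of cells treated with CA2 shRNA, 3 of cells labelled Scrambled and 3 of cells labelled Control. They name no shRNA sequence, no construct for the Scrambled cells and no culture time, and do not say whether the Control cells were transduced or whether replicates were separate cultures. The p-values therefore measure the spread between these libraries, which may be technical.

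Cartilage has no blood vessels, and chondrocytes live largely by glycolysis, which leaves pyruvate. Lactate dehydrogenase is a tetramer of LDHA and LDHB subunits that turns pyruvate into lactate and back, with LDHA-rich forms known from glycolytic tissues and LDHB-rich forms from oxidative ones. The SLC16A1 (MCT1), SLC16A3 (MCT4) and SLC16A7 (MCT2) proteins carry lactate together with a proton, and they need basigin (BSG) or embigin (EMB) to reach the membrane. CA2 is known from oocyte and tumour-cell work to bind MCT1 and MCT4 and to speed their lactate transport, without needing its catalytic activity.

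One promoter each of LDHA and SLC16A3, the one with matches, is shown. These genes were taken because LDHA was the member that varied most between CA2 shRNA libraries and SLC16A3 was a member that rose. Both are also textbook targets of the hypoxia-inducible factors, for which ACGTG is one form of the core. Other forms were not searched. RefSeq lists 12 start sites for the 5 members that matched its promoter table by symbol. LDHB, SLC16A7 and BSG were the other matched members, and SLC16A1 and EMB did not match. The 250 bases before each start were searched for ACGTG on both strands, so that CACGT on the printed strand also counts and a CACGTG holds both in overlap. The letters were found in 3 of the 12 member promoters, against 18.51% of 35116 promoters of the same length. One LDHA promoter held 5 matches and the other listed for LDHA held 0. One of 5 listed for SLC16A3 held 2, and one for BSG held 2. The capitals mark the matches, the bases are those of the plus strand of GRCh38.p14, and a match is a description of letters only.

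LDHA, chr11:18394313-18394562, plus strand: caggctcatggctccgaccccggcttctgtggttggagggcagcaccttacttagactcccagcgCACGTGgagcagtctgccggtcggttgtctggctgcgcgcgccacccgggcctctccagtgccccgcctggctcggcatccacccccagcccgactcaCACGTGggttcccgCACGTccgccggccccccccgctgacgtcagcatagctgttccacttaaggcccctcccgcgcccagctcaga
SLC16A3, chr17:82228792-82229041, plus strand: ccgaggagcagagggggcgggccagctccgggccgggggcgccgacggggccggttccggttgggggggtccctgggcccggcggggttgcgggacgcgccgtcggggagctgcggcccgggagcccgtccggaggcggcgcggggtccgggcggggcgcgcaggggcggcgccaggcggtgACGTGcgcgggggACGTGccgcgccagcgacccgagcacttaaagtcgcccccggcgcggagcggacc

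Sequencing gave 16994368 to 34261244 counts per library, and levels below are CPM, a gene's reads relative to all reads of its library, scaled with TMM factors unless said otherwise. The targeted gene CA2 had 1.397, 0.905 and 1.097 CPM in the CA2 shRNA libraries, against 1.82, 1.96 and 2.06 in Scrambled and 2.31, 2.00 and 1.94 in Control. It stood at 58.2% of the Scrambled mean and 54.4% of the Control mean, with log2 changes of -0.77 (SE 0.231) and -0.86 (SE 0.230) and adjusted p of 0.0276 and 0.0159 in edgeR's quasi-likelihood test, over all 19812 genes by Benjamini-Hochberg. These rest on 15 to 66 reads per library, and the call was kept in 13 and 15 of 18 alternative settings. Against Scrambled it was lost without CA2 shRNA 2 (adjusted p = 0.1), CA2 shRNA 3 (0.109), Scrambled 2 (0.0533) or Scrambled 3 (0.103) and with no filter on low counts (0.0544). Against Control it was lost without CA2 shRNA 2 (0.0665), CA2 shRNA 3 (0.0759) or Control 1 (0.0531). In cultures sequenced as a whole, fewer cells of a kind and less RNA per cell cannot be told apart. Of 12 chondrocyte markers 7 passed the filter. SOX9 was present at 81.7 to 105.3 CPM over the 9 libraries, while COL2A1 had 1.45 to 2.23 CPM and ACAN 0.402 to 1.17 CPM, and COL9A1 had no read in any library. Control 3 and Scrambled 2 had 4.06% and 4.08% of counts from mitochondrial genes, against 5.55% to 6.86% in the other 7 libraries, and results were also computed without them.

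In the CA2 shRNA cells SLC16A1 and SLC16A3 were higher than in either control group, by about 1.5 and 1.25 times, and the other 5 members did not pass the test. Against Scrambled, 2 of 7 members were higher and none was lower, beside 8.02% of all tested genes called higher and 16.9% called in either direction. Against Control, the same 2 of 7 were higher and none was lower, beside 6.41% of genes higher and 14.7% in either direction. Genes called higher in both comparisons were 5.49% of those tested. The median log2 change of the members was 0.21 against Scrambled and 0.12 against Control, while that of all tested genes was -0.03 and -0.01. Both comparisons use the same CA2 shRNA libraries. Between the Scrambled and Control cells none of the 7 members was called and 0.0% of genes were. There 550 genes had an unadjusted p under 0.05, and DESeq2 called 1 gene. Libraries differed inside both control groups. Chi-square per gene, a measure of how far 2 libraries differ, was 14.4 for Control 1 and 3 and 19.6 for Scrambled 1 and 2. It was 3.70 for Control 3 and Scrambled 2. Such spread enters the test, so few calls do not show the control groups to be alike.

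**Figure D1:**
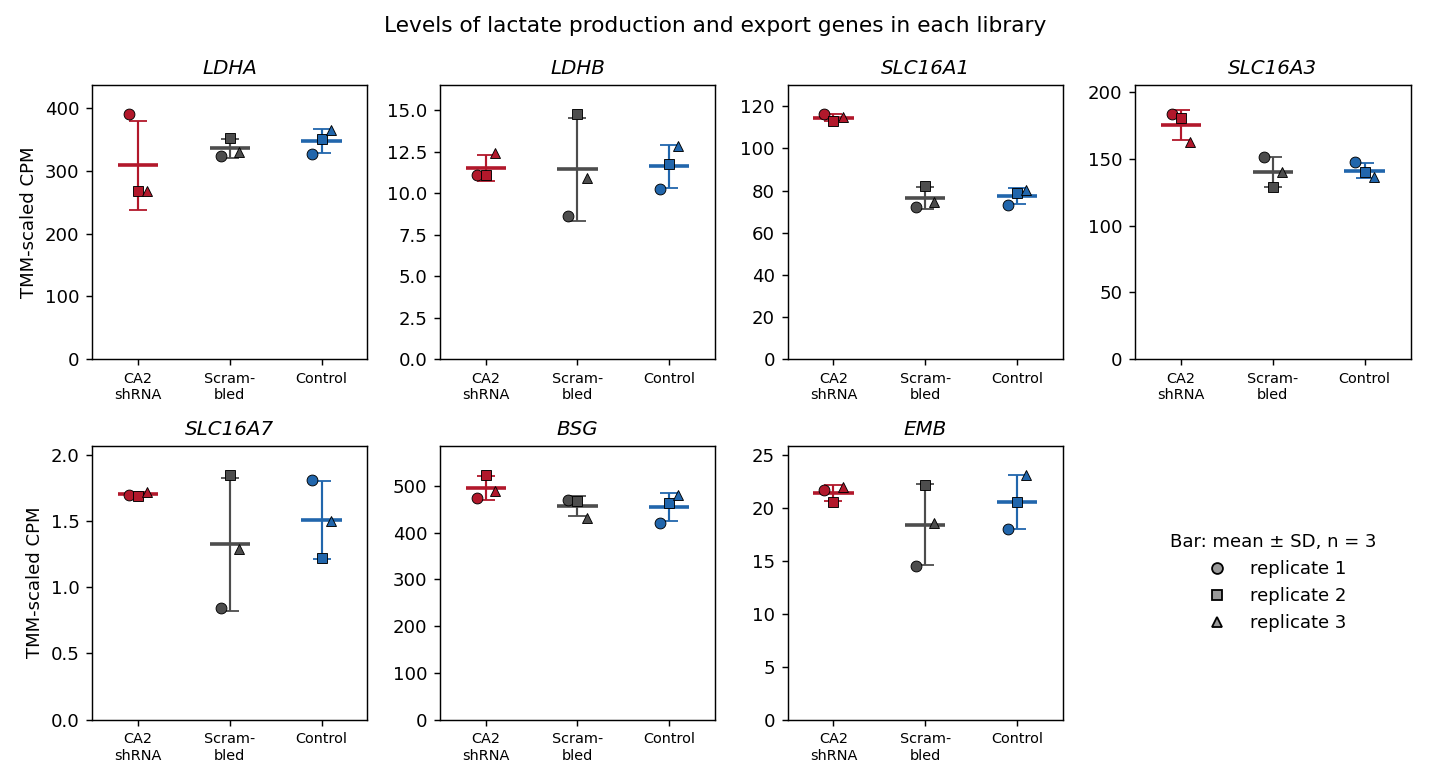
TMM-scaled CPM (y axis, from 0, a separate scale for each gene) of the 7 genes in every library, for the CA2 shRNA, Scrambled and Control groups from left to right. Points are libraries with a symbol for each replicate number, and bars give the mean ± SD over 3 libraries. The 3 CA2 shRNA points stand above all 6 control points for SLC16A1 and SLC16A3, and the LDHA points of the CA2 shRNA group lie both above and below those of the controls.

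LDHA encodes the M subunit of lactate dehydrogenase. Its level was 390.6, 268.7 and 267.9 CPM in CA2 shRNA replicates 1, 2 and 3, against 324.2, 353.0 and 331.0 in Scrambled and 326.8, 350.9 and 365.2 CPM in Control. CA2 shRNA 1 was above all 6 control libraries and CA2 shRNA 2 and 3 were below all 6, so the groups overlapped. The mean was 309.1 ± 70.6 CPM in CA2 shRNA, 336.0 ± 15.1 in Scrambled and 347.6 ± 19.4 in Control (SD, n = 3 each). The log2 change was -0.12 against Scrambled (95% interval -0.44 to 0.20, adjusted p = 0.629, edgeR quasi-likelihood) and -0.17 against Control (-0.49 to 0.15, adjusted p = 0.517). The value rests on 1 library. Without CA2 shRNA 1, LDHA was lower by the same test, with log2 changes of -0.29 (adjusted p = 0.00677) and -0.34 (adjusted p = 0.00225), and without CA2 shRNA 3 the change against Scrambled was 0.00 (adjusted p = 0.998). Leaving out one library was the only kind of setting in which LDHA passed.

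LDHB encodes the H subunit. It had 11.1, 11.1 and 12.4 CPM in CA2 shRNA, against 8.62, 14.8 and 10.9 in Scrambled and 10.3, 11.8 and 12.9 CPM in Control. The CA2 shRNA values lay within the range of the control libraries. The log2 change was 0.01 against Scrambled (95% interval -0.34 to 0.36, adjusted p = 0.974) and -0.01 against Control (-0.36 to 0.34, adjusted p = 0.978).

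Divided by gene length, LDHA took nearly all of the summed message of LDHA and LDHB. The deposited RPKM, which divides by the summed exon length of a gene, averaged 54.7 ± 6.92 for LDHA and 3.86 ± 0.583 for LDHB (SD over 9 libraries). The share of LDHA in the sum of both was 94.6%, 92.3% and 91.4% in CA2 shRNA, against 94.9%, 92.2% and 93.7% in Scrambled and 94.0%, 93.7% and 93.3% in Control. The mean share in CA2 shRNA differed by -0.85 percentage points from Scrambled (exact permutation test, two-sided, p = 0.6) and by -0.92 from Control (p = 0.4), and 3 libraries against 3 cannot go below 0.1 in that test. Reads of near-identical pseudogenes could be split from their parent genes. The 6 LDHA pseudogenes together held 24 to 73 reads per library, at most 0.764% of those of LDHA, and the 3 LDHB pseudogenes held 4 to 10.

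SLC16A1 encodes MCT1, a carrier with high affinity for lactate that works in both directions. It had 116.2, 113.0 and 114.7 CPM in CA2 shRNA, against 72.0, 82.1 and 74.7 in Scrambled and 72.9, 78.6 and 80.3 CPM in Control. Every CA2 shRNA library was above every control library. SLC16A1 was 1.503 times its Scrambled level (log2 0.59, SE 0.062, adjusted p = 3.05e-06, edgeR quasi-likelihood) and 1.48 times its Control level (log2 0.57, SE 0.063, adjusted p = 4.39e-06). The call was kept in all 18 alternatives for each comparison, with log2 values of 0.54 to 0.67 against Scrambled and 0.53 to 0.63 against Control. The 3 CA2 shRNA libraries differed among themselves by less than those of most genes: their highest over lowest value was larger than in only 4.94% of the 11673 genes with a mean of at least 5 CPM.

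SLC16A3 encodes MCT4, the carrier best known for lactate export from glycolytic cells. It had 183.5, 181.0 and 162.7 CPM in CA2 shRNA, against 151.6, 128.7 and 140.0 in Scrambled and 147.5, 140.0 and 136.5 CPM in Control. All CA2 shRNA libraries were again above all control libraries, with CA2 shRNA 3 the nearest to Scrambled 1. The level was 1.25 times that in Scrambled (log2 0.33, SE 0.066, adjusted p = 0.00206) and 1.24 times that in Control (log2 0.31, adjusted p = 0.00294, edgeR quasi-likelihood). It was called in all 18 alternatives for each comparison, with adjusted p of at most 0.0218 and 0.0304. Its exons share 482 bases, 5.36% of its exon length, with CSNK1D, a kinase gene on the other strand, and the strand setting of the counting is not given in the sources used here. CSNK1D had 164.7 ± 4.74 CPM in CA2 shRNA, 172.7 ± 12.1 in Scrambled and 170.4 ± 4.17 in Control, with log2 changes of -0.07 (adjusted p = 0.478) and -0.05 (adjusted p = 0.667). SLC16A1 shares 175 exon bases with its antisense gene SLC16A1-AS1, which had 8.14 ± 0.557 CPM in CA2 shRNA, 9.13 ± 0.125 in Scrambled and 8.46 ± 0.727 in Control, and was not called (adjusted p = 0.368 and 0.827).

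SLC16A7 encodes MCT2, a carrier of still higher affinity known from neurons and liver. It was rare, with 34, 28 and 47 reads in CA2 shRNA, against 19, 50 and 38 reads in Scrambled and 43, 25 and 51 reads in Control. As levels these were 1.70, 1.69 and 1.72 CPM in CA2 shRNA, against 0.844, 1.85 and 1.29 in Scrambled and 1.81, 1.22 and 1.496 CPM in Control. The groups overlapped. The log2 change was 0.34 against Scrambled (95% interval -0.23 to 0.92, adjusted p = 0.442) and 0.17 against Control (-0.40 to 0.74, adjusted p = 0.763), intervals wide enough to hold the change seen for SLC16A1.

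Of the summed RPKM of SLC16A1 and SLC16A3, SLC16A1 took 52.5%, 52.1% and 55.1% in CA2 shRNA, against 45.3%, 52.6% and 48.2% in Scrambled and 46.3%, 49.5% and 50.6% in Control. CA2 shRNA was above all 3 Control libraries and overlapped with Scrambled 2. The mean share was higher in CA2 shRNA by 4.54 percentage points than in Scrambled (exact permutation test, two-sided, p = 0.3) and by 4.45 than in Control (p = 0.1, the smallest that 3 against 3 allows). With 3 libraries a group this test cannot pass 0.05 whatever the values, so it does not settle whether SLC16A1 rose by more than SLC16A3.

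BSG encodes basigin (CD147), the chaperone of MCT1 and MCT4, and was the most abundant member per length. It had 475.2, 523.2 and 488.6 CPM in CA2 shRNA, against 470.5, 468.1 and 432.0 in Scrambled and 420.9, 464.3 and 480.1 CPM in Control. All CA2 shRNA libraries were above all Scrambled ones, and CA2 shRNA 1 was below Control 3. The log2 change was 0.12 in both comparisons (95% interval -0.01 to 0.25, adjusted p = 0.215 against Scrambled and -0.01 to 0.25, adjusted p = 0.214 against Control, edgeR quasi-likelihood), and no alternative called it.

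EMB encodes embigin, the chaperone best known as the partner of MCT2. It had 21.7, 20.5 and 21.9 CPM in CA2 shRNA, against 14.5, 22.2 and 18.6 in Scrambled and 18.0, 20.6 and 23.1 CPM in Control. The groups overlapped. The log2 change was 0.21 against Scrambled (95% interval -0.07 to 0.50, adjusted p = 0.317) and 0.06 against Control (-0.23 to 0.34, adjusted p = 0.849). Without Scrambled 2, one of the 2 libraries with a low mitochondrial share, EMB was higher against Scrambled by edgeR (log2 0.39, adjusted p = 0.0172), and it was also higher without Scrambled 2 and Control 3 together (adjusted p = 0.00845). The pseudogene EMBP1 held 27 to 55 reads per library, 6.21% to 12.2% of those of EMB.

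**Figure D2:**
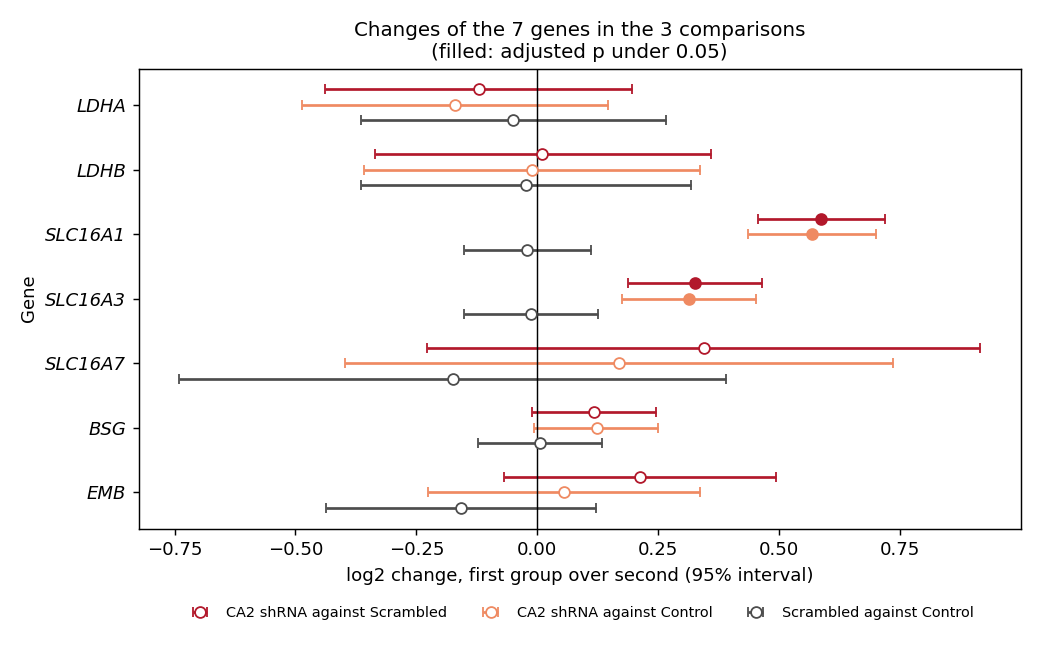
Log2 change (x axis, first group over second, with the 95% interval) of the 7 genes (y axis) in the CA2 shRNA cells over each control group and in Scrambled over Control. Filled points have an adjusted p under 0.05. SLC16A1 and SLC16A3 alone among the 7 have filled points, and all 7 intervals of Scrambled against Control include 0.

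All 3 CA2 shRNA libraries stood above all 6 control libraries for 2 of the 7 members, SLC16A1 and SLC16A3, as for 11.7% of all tested genes. For Scrambled against Control the log2 changes of the members ran from -0.17 to 0.00. In the order of mean RPKM over the 9 libraries, BSG stood at 123.6, LDHA at 54.7, SLC16A1 at 17.3, SLC16A3 at 16.9, LDHB at 3.86, EMB at 3.83 and SLC16A7 at 0.110. That order of SLC16A1 and SLC16A3 held in the CA2 shRNA means only, which was not tested as a difference between groups. SLC16A1 stood at 22.2 ± 0.686 RPKM in CA2 shRNA, 14.8 ± 1.0 in Scrambled and 14.9 ± 0.668 in Control (SD, n = 3 each). SLC16A3 stood at 19.5 ± 1.11 RPKM in CA2 shRNA, 15.6 ± 1.32 in Scrambled and 15.7 ± 0.713 in Control. SLC16A1 was thus the higher in all 3 CA2 shRNA libraries, and the means in Scrambled and Control had SLC16A3 above it by less than the sum of their SDs. LDHB and EMB did not differ beyond their spread over the 9 libraries (SD 0.583 and 0.507 RPKM). With the length of the principal transcript in GENCODE 29 in place of the summed exon length, SLC16A3 stood at 31.5 ± 3.96 and SLC16A1 at 20.4 ± 4.37 on the same scale, so the order of these 2 carriers also depends on the length used. BSG, at 98.8%, and LDHA, at 96.4%, were above nearly all tested genes in RPKM. SLC16A1 and SLC16A3 were above 86.0% and 85.7%, LDHB and EMB above 57.4% and 57.2%, and SLC16A7 above 3.08%.

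In the coordinates of the deposited tables (GRCh38) the members lie on 6 chromosomes, each spanning several exons of a protein-coding gene. LDHA (ENSG00000134333) lies on chromosome 11 from 18394560 to 18408425 and LDHB (ENSG00000111716) on chromosome 12 from 21635342 to 21757857. SLC16A1 (ENSG00000155380) lies on chromosome 1 from 112911847 to 112957013, SLC16A3 (ENSG00000141526) on chromosome 17 from 82228397 to 82261129, and SLC16A7 (ENSG00000118596) on chromosome 12 from 59596029 to 59789855. BSG (ENSG00000172270) lies on chromosome 19 from 571277 to 583493 and EMB (ENSG00000170571) on chromosome 5 from 50396192 to 50443248.

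The spread of LDHA among the CA2 shRNA libraries was unusual. Its highest over lowest value there was 1.46, above that of 98.1% of the 11673 genes with a mean of at least 5 CPM, where the median was 1.11. Some other genes that hypoxia-inducible factors are known to drive, chosen after their values were seen, were also highest in CA2 shRNA 1. CA9, a membrane carbonic anhydrase, had 13.6, 2.35 and 1.13 CPM in CA2 shRNA, against 1.29, 0.849 and 0.981 in Scrambled and 1.01, 0.732 and 0.939 CPM in Control. PDK1, a kinase that shuts pyruvate out of the mitochondrion's oxidation, had 20.01, 10.3 and 13.2 CPM in CA2 shRNA, against 11.3, 13.6 and 12.9 in Scrambled and 12.7, 12.8 and 12.3 CPM in Control. EGLN3, a prolyl hydroxylase, had 3.84, 2.41 and 2.85 CPM in CA2 shRNA, against 1.69, 2.59 and 1.83 in Scrambled and 1.98, 2.44 and 1.97 CPM in Control. None of these was called in either comparison by edgeR (lowest adjusted p 0.0913), though DESeq2 called CA9 (adjusted p = 0.0225 and 0.0135), as did edgeR without CA2 shRNA 3 (0.0373 and 0.0354). Without CA2 shRNA 1 the log2 change of PDK1 was -0.06 against Scrambled and -0.05 against Control. SLC16A1 showed no such spread, and SLC16A3 was 1.13 times as high in its highest as in its lowest CA2 shRNA library. Among the CA2 shRNA libraries, replicate 1 was also highest for listed genes that were not picked as such targets. GPT had 2.80, 1.27 and 2.05 CPM in CA2 shRNA replicates 1, 2 and 3, and LDHD 8.04, 5.43 and 6.25. CA2 itself, RBFOX3 and COMP were highest there too, all named after their values were seen. Not every listed gene was highest in CA2 shRNA 1. PKM, which makes pyruvate, had 2759, 2916 and 2593 CPM in CA2 shRNA replicates 1, 2 and 3. BSG, with ACGTG in one promoter, had 475.2, 523.2 and 488.6 CPM there and was lowest in CA2 shRNA 1. Whether these values bear on those of LDHA was not tested.

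**Figure D3:**
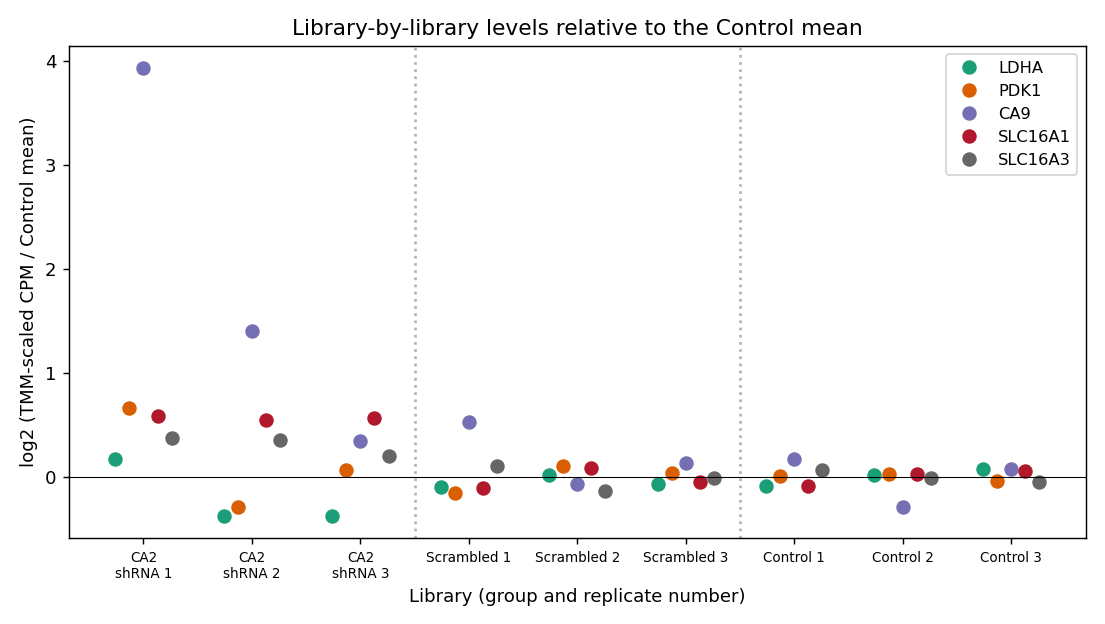
Log2 of TMM-scaled CPM over the Control mean (y axis) for LDHA, PDK1, CA9, SLC16A1 and SLC16A3 in each library (x axis), CA2 shRNA at left, then Scrambled, then Control. CA9, PDK1 and LDHA are highest in CA2 shRNA 1, LDHA is lower in CA2 shRNA 2 and 3 than in any control library, and SLC16A1 is at about the same height in all 3 CA2 shRNA libraries.

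By root mean square difference of log2 CPM, centred on its mean over the 9 libraries, the genes most like SLC16A1 were PAPSS2 (0.0471), which makes the sulfate donor for proteoglycans, JCAD (0.0532), a junction protein, and CYP2S1 (0.0555), a cytochrome P450. The own deviation of SLC16A1 on that scale was 0.28, and 11628 genes were compared. PAPSS2 had 57.0, 58.9 and 57.6 CPM in CA2 shRNA, against 36.2, 39.7 and 36.3 in Scrambled and 36.3, 36.1 and 40.0 CPM in Control. Most like SLC16A3 were GATA2 (0.0342), a transcription factor, MIER2 (0.0391) and C15orf39 (0.0399), against an own deviation of 0.17. For LDHA, added after its values were seen, the nearest were PEG3 (0.0642), ANKRD49 (0.0824) and APOLD1 (0.0878), against an own deviation of 0.18.

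Among the other SLC16 genes all 11 were tested. Against Scrambled 2 were higher and 0 lower, and against Control 1 was higher and 0 lower, with medians of 0.14 and 0.12 on the log2 scale. Beside them stand 8.02% and 6.41% of all tested genes called higher and medians of -0.03 and -0.01, and 1 of 11 is near that background. SLC16A13 (MCT13) had 68.9 CPM in CA2 shRNA, against 57.2 in Scrambled (log2 0.27, adjusted p = 0.00382, edgeR quasi-likelihood) and 55.7 in Control (log2 0.31, adjusted p = 0.00133). SLC16A6 (MCT7), a ketone body carrier, had 3.49 CPM in CA2 shRNA, against 2.30 in Scrambled (log2 0.60, adjusted p = 0.0413) and 2.53 in Control (log2 0.47, adjusted p = 0.128). The SLC16A6 call against Scrambled was kept in 11 of 18 alternatives and was lost without CA2 shRNA 1, 2 or 3, Scrambled 1 or 3, or Control 2, with adjusted p of 0.0573 to 0.178, and with upper-quartile factors (0.0502). Of 5 further dehydrogenase family genes 3 were tested and none was called. UEVLD averaged 25.0 CPM in CA2 shRNA, 26.3 in Scrambled and 30.4 in Control, and LDHD, the D-lactate dehydrogenase, 6.57, 6.29 and 5.98 CPM in the same groups. UEVLD was called lower against Control with no filter on low counts (log2 -0.28, adjusted p = 0.0201). Of 4 other carriers and relatives 2 were tested. NPTN, the chaperone neuroplastin, had 110.6 CPM in CA2 shRNA, against 96.7 in Scrambled (log2 0.19, adjusted p = 0.042) and 102.7 in Control (log2 0.11, adjusted p = 0.312). Its call was lost without CA2 shRNA 2 (0.196), Scrambled 1 (0.116), Scrambled 3 (0.185) or Control 2 (0.0854) and with only the compared groups in the fit (0.0555). HCAR1, the lactate receptor, had 8.61 CPM in CA2 shRNA, against 6.99 in Scrambled (log2 0.29, adjusted p = 0.112) and 6.34 in Control (log2 0.44, adjusted p = 0.021). The HCAR1 call was lost without CA2 shRNA 1, CA2 shRNA 2, Control 1 or Control 3, with adjusted p of 0.0753 to 0.0854.

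Around the pyruvate branch point, where pyruvate is made, reduced to lactate or taken into the mitochondrion, 18 of 19 listed genes were tested. Against Scrambled 5 were higher and 1 lower, and against Control 3 were higher and 2 lower, with medians of 0.18 and 0.11. Of all tested genes 16.9% were called against Scrambled and 14.7% against Control in either direction, with medians of -0.03 and -0.01. PDHX, the subunit that tethers dihydrolipoamide dehydrogenase in the pyruvate dehydrogenase complex, had 85.7 CPM in CA2 shRNA, against 64.4 in Scrambled (log2 0.41, adjusted p = 0.000214, edgeR quasi-likelihood) and 67.6 in Control (log2 0.34, adjusted p = 0.0012). The phosphatases that switch this complex on went opposite ways. PDP1 fell to 50.6 CPM in CA2 shRNA, against 75.7 in Scrambled (log2 -0.58, adjusted p = 8.06e-05) and 77.4 in Control (log2 -0.61, adjusted p = 4.69e-05). PDP2 was 87.2 CPM in CA2 shRNA, against 69.9 in Scrambled (log2 0.32, adjusted p = 0.0042) and 70.7 in Control (log2 0.30, adjusted p = 0.00665). PDK4, a kinase that switches it off, had 21, 7 and 17 reads in CA2 shRNA, against 23, 35 and 29 in Scrambled (log2 -0.64, adjusted p = 0.217) and 36, 25 and 67 in Control (log2 -1.18, adjusted p = 0.018). The PDK4 call was lost without CA2 shRNA 2 (0.0874), CA2 shRNA 3 (0.0894) or Control 3 (0.0981) and without Control 3 and Scrambled 2 together (0.0742), and the PDP2 call against Control was lost without Control 2 (0.0573).

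**Figure D4:**
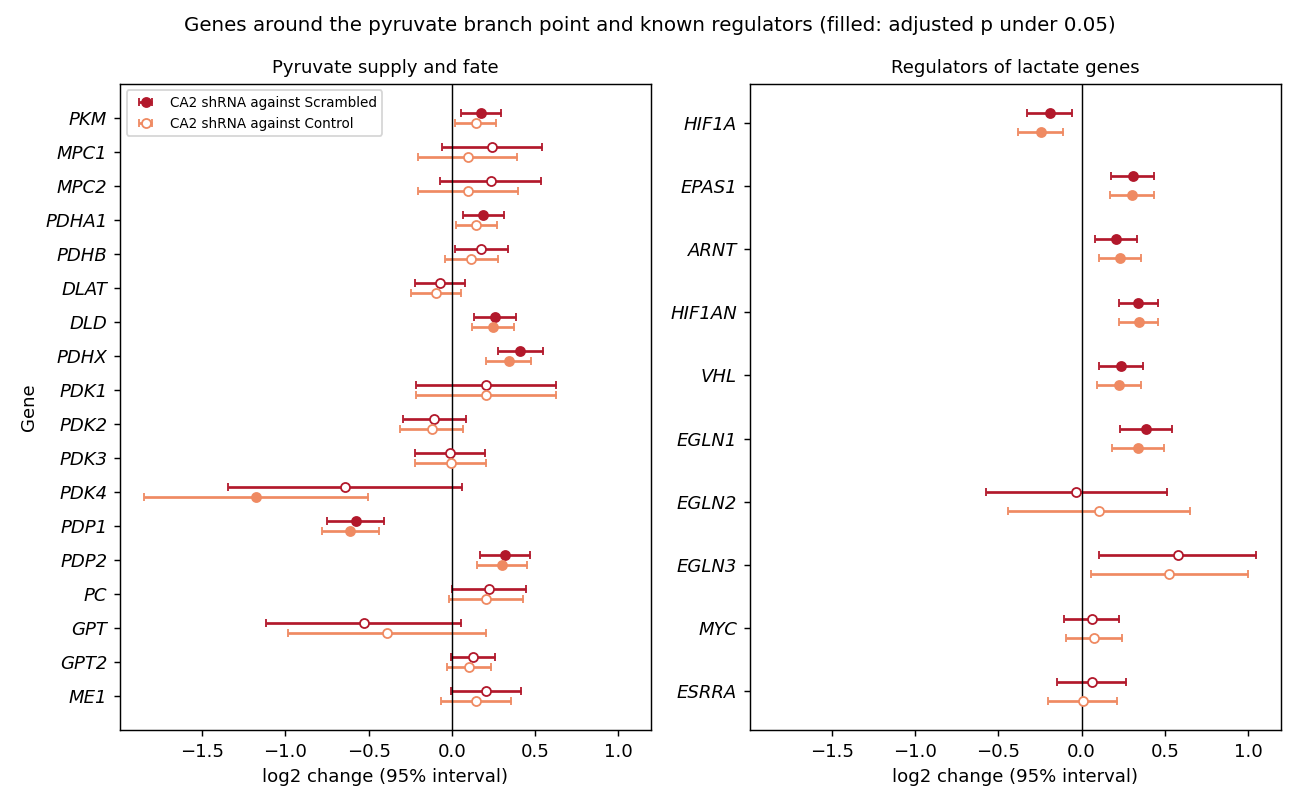
Log2 change with its 95% interval (x axis) of the tested genes (y axis) around the pyruvate branch point, left, and of known regulators of lactate genes, right, in CA2 shRNA against Scrambled and against Control. Filled points have an adjusted p under 0.05. PDP1 lies to the left of 0 and PDHX and PDP2 to the right in both comparisons, with HIF1A to the left and EPAS1, EGLN1 and HIF1AN to the right.

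Of 11 known regulators of these genes 10 were tested, with 5 higher and 1 lower in both comparisons and medians of 0.22 and 0.23 on the log2 scale. Over all tested genes 16.9% and 14.7% were called in either direction, 8.02% and 6.41% as higher, with medians of -0.03 and -0.01. HIF1A, the hypoxia-inducible factor subunit that drives LDHA, had 312.8 CPM in CA2 shRNA, against 357.3 in Scrambled (log2 -0.19, adjusted p = 0.0491, kept in 6 of 18 alternatives) and 370.8 in Control (log2 -0.24, adjusted p = 0.0145, kept in 14 of 18). Against Scrambled the HIF1A call was lost without any one of CA2 shRNA 1, 2 or 3, Scrambled 2 or 3, or Control 2 or 3. It was also lost by edgeR with DESeq2 size factors (adjusted p = 0.092) and with the filter of 1 CPM in 3 libraries (0.0544). The same held with only the compared groups (0.0663), without Control 3 and Scrambled 2 together (0.194) and by the DESeq2 test (0.0865). Against Control it was lost without CA2 shRNA 1 (0.14), Control 2 (0.0586) or Control 3 (0.0684) and without Control 3 and Scrambled 2 together (0.0712). EPAS1, which encodes the related HIF-2 alpha, was 138.5 CPM in CA2 shRNA, against 111.9 in Scrambled (log2 0.31, adjusted p = 0.00212) and 112.2 in Control (log2 0.30, adjusted p = 0.00246). EGLN1, the main oxygen-sensing prolyl hydroxylase, was 37.7 CPM in CA2 shRNA, against 28.9 in Scrambled (log2 0.39, adjusted p = 0.00137) and 29.8 in Control (log2 0.34, adjusted p = 0.0041). HIF1AN, the asparaginyl hydroxylase FIH, was 180.1 CPM in CA2 shRNA, against 142.3 in Scrambled (log2 0.34, adjusted p = 0.000326) and 141.8 in Control (log2 0.34, adjusted p = 0.000292).

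Of the 4 carbonic anhydrases known to work with the lactate carriers 3 were tested. Against Scrambled CA12 was higher and CA2 lower, and against Control CA2 alone was called. Beside them stand 16.9% and 14.7% of all tested genes called in either direction. CA2 is the gene that the shRNA targets, so its call says nothing about the set. CA12, a membrane enzyme with its active site outside the cell, had 5.44, 3.80 and 3.55 CPM in CA2 shRNA, against 2.53, 2.40 and 2.13 CPM in Scrambled (log2 0.85, adjusted p = 0.0058) and 3.19, 3.27 and 2.46 CPM in Control (log2 0.53, adjusted p = 0.0807, edgeR quasi-likelihood). The CA12 values rest on 57 to 109 reads per library. All CA2 shRNA libraries were above all control libraries for CA12, as for 11.7% of all tested genes. The comparison of CA12 with Control passed by edgeR without CA2 shRNA 3 (adjusted p = 0.0468) or Scrambled 2 (0.0463).

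Markers of immune, endothelial and epithelial cells were low, but not all were below the chondrocyte genes COL2A1 and ACAN. The means of SNAP25 and GFAP, from the neural list, and of the endothelial VWF were above both in every group. VWF averaged 2.12 CPM in CA2 shRNA, 2.35 in Scrambled and 2.11 in Control, against 1.63, 1.80 and 1.90 for COL2A1. The immune marker CD14 was above ACAN in the mean of every group. The part of these markers in the member values was not tested. The 5 immune markers summed to 1.15 to 1.83 CPM in CA2 shRNA, 1.92 to 2.31 in Scrambled and 1.26 to 1.91 in Control, the 4 endothelial markers to 3.98 to 4.75, 3.82 to 4.53 and 3.64 to 4.16 CPM in the same groups, and the 3 epithelial markers to at most 1.27 CPM in any library. Of these 1 immune, 4 endothelial and 1 epithelial marker passed the filter on low counts and were tested, and none of the tested ones was called. The 5 neural and muscle markers summed to 14.1 to 16.7 CPM in CA2 shRNA, 22.6 to 25.6 in Scrambled and 21.9 to 23.2 in Control. SNAP25, a synaptic gene, was the one of 3 tested that was called, lower in both comparisons, at 10.9 ± 1.02 CPM in CA2 shRNA, 19.0 ± 1.63 in Scrambled and 18.4 ± 0.692 in Control. MYH1 had no read in the CA2 shRNA libraries and at most 2 reads in any other library, and it was not tested. The 12 chondrocyte markers summed to 124.8 to 127.6 CPM in CA2 shRNA, 111.3 to 118.2 in Scrambled and 106.2 to 120.1 in Control. SOX9 made up most of these sums, with means of 104.6, 90.9 and 90.7 CPM in the same groups. The sums therefore do not show the set to have risen. SOX9 was called higher and COMP lower, and COL9A1 was without a read.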

How the data were processed

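Per the labels' protocols, total RNA was extracted with RNeasy Mini and QIAGEN FastSelect was used. Per the submitters' processing notes, the build was GRCh38 and the tools included STAR 2.5.1a, bcl2fastq and, from Subread, featureCounts 1.4.6-p5. Which annotation was counted, on which strand, with what read layout and how multiply mapped reads were treated is not given in the sources used here. The authors deposited 1 table per library with a whole-number read count, a CPM and an RPKM for each gene, per the file headers. The deposited CPM and RPKM were recomputed from the counts and the summed exon lengths and matched. Counts carry counting error, and totals of 16994368 to 34261244 set the precision of low genes such as SLC16A7.

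The deposited counts were tested with edgeR 4.0.16 in R 4.3.3. Genes were kept by filterByExpr, scaled with TMM factors (0.977 to 1.01) and fitted on all 9 libraries with a term per group, robust quasi-likelihood and 6 residual degrees of freedom. P-values were Benjamini-Hochberg adjusted over 19812 genes, and genes under 0.05 were called, whatever their fold. The biological coefficient of variation was 7.94%. SEs are the log2 change over the root of F, and 95% intervals use the moderated degrees of freedom. The fit was tested on simulated data. Printed CPM are TMM-scaled. Symbols for 60401 gene IDs came from a name table and 246 more from GENCODE 29. No 2 libraries agreed within sampling noise (chi-square per gene at least 3.70). Alternatives were DESeq2 size factors, upper-quartile factors, library totals, no filter, 1 CPM in 3 libraries, the DESeq2 1.42.0 test, only the compared groups, a replicate block, each library left out, and Control 3 and Scrambled 2 left out together.

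The members and lists were chosen with earlier results of these data known. All members and CA2 are named. From each list up to 4 genes with the largest changes among those called, or else the 2 with the highest level, are named. For each called member the 3 most alike genes with a mean of at least 5 CPM are named. Genes outside this rule are said to be chosen after their values were seen. Among the markers these are SOX9, COL2A1, ACAN, COMP, COL9A1, MYH1, SNAP25, GFAP, VWF, CD14 and RBFOX3.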

Additional observations from a re-analysis of the deposited data

How the results depend on the processing

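SLC16A1 and SLC16A3 kept their direction and call in all 18 alternatives of both CA2 shRNA comparisons, and the members called stayed at 2 except where libraries were left out. Single libraries left out gave 2 to 3, and leaving out Control 3 and Scrambled 2 together gave 3 against Scrambled. Genes called against Scrambled ran from 2059 (without Scrambled 3) to 4011 when single libraries were left out, and against Control from 1962 to 3662. For Scrambled against Control leaving out a library gave 0 to 1 called genes, no filter gave 7 and the DESeq2 test gave 1. No scaling moved the median of all genes by more than 0.021 on the log2 scale. Some members and other named genes that were not called changed sign, and not all of them lay near 0 in the main fit. There LDHA was -0.121 against Scrambled and SLC16A7 -0.175 for Scrambled against Control. PDK1 was 0.205 against Scrambled and 0.208 against Control. Against Scrambled LDHB was -0.006 with upper-quartile factors. Against Control LDHB was 0.01 with the filter of 1 CPM in 3 libraries, 0.00 with the DESeq2 test and 0.11 without Control 3 and Scrambled 2 together. With those 2 left out UEVLD was 0.10 against Scrambled. For Scrambled against Control SLC16A3 was 0.006 with upper-quartile factors and 0.026 with those 2 left out, and BSG was -0.003 with DESeq2 size factors, -0.005 with no filter and -0.003 with the DESeq2 test. With single libraries left out, the log2 change against Scrambled ran from -0.292 to 0.001 for LDHA, -0.158 to 0.262 for LDHB, -0.199 to 0.103 for UEVLD, -0.065 to 0.164 for LDHD and -0.055 to 0.376 for PDK1. Against Control it ran from -0.095 to 0.076 for LDHB, -0.033 to 0.153 for EMB and -0.052 to 0.375 for PDK1. For Scrambled against Control it ran from -0.244 to 0.131 for LDHB, -0.071 to 0.015 for SLC16A1, -0.076 to 0.050 for SLC16A3, -0.478 to 0.039 for SLC16A7 and -0.049 to 0.046 for BSG. The cause of these changes was not tested beyond the library left out.

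The groups share replicate numbers, but same-numbered libraries did not deviate together throughout (correlations of -0.39 to 0.35), so the numbers were not taken as pairs. The pairs of replicate 1 had correlations of 0.347, 0.143 and 0.098. Deviations were taken from the mean of each group of 3 libraries, so positive correlations bring negative ones with them. Differently numbered libraries ran from opposite deviations (-0.52, Control 1 and Scrambled 2) to shared ones (0.645, Control 3 and Scrambled 2). What these libraries share was not tested. With the replicate number as a block the members called were 2, 2 and 0 and the genes called 3422 against Scrambled, 2946 against Control and 0 for Scrambled against Control. The share of LDHA or SLC16A1 within its pair kept its direction in both CA2 shRNA comparisons with counts in place of counts per kilobase and with the principal transcript length, which was chosen after seeing the data. Depth limits SLC16A7, CA2 and PDK4, with under 70 reads in every library.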
